A study of Mus musculus with 2 samples.

Results

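The 8 genes described here encode the phosphatase calcineurin, its inhibitor Rcan1 and the NFAT transcription factors that calcineurin acts on: Ppp3ca, Ppp3cb, Ppp3r1, Rcan1, Nfatc1, Nfatc2, Nfatc3 and Nfatc4. They were chosen by name, as known parts of this pathway, and no rule on measured values was used. Earlier results of these data were known at the time. They are 8 of 55536 genes in the gene tables, and hold 60 of 141862 transcripts. All 8 had a row in each gene table and transcripts in every transcript table. The tissue was gastrocnemius, a calf muscle made mostly of fast fibres. It came from female mice of the F1 hybrid strain B6CASTF1/J, aged 36 days. Total RNA was sequenced from 300 ng per library with synthetic ERCC spike-in RNAs added. The study has 1 untreated group of 2 libraries, called replicate 1 and replicate 2 as in the labels, with 37735687 and 40656175 estimated counts. Whether the replicates are separate animals is not stated in the labels, so the spread between them cannot be read as spread between animals. The source of this spread was not tested. No condition was compared, so no p-value is given. Differences are described by their size, by a 95% counting interval, which covers counting error only, and by the share of all genes that lay as far apart.

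Calcineurin is a serine/threonine phosphatase that is switched on by calcium and calmodulin. It joins a catalytic A subunit to a calcium-binding B subunit, removes phosphate from NFAT proteins and so lets them enter the nucleus, where they bind DNA at GGAAA cores. In skeletal muscle the pathway is known for reading the calcium signals of nerve activity and for its part in the slow-fibre programme. RNA levels, which are all that was measured here, show neither the phosphatase activity nor where the NFAT proteins were.

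Several of the 8 genes make transcripts that differ in a short, defined stretch, and those stretches are shown first because the transcript results turn on them. Ppp3ca and Ppp3cb each have a cassette exon of 30 bases, in frame, that some transcripts include and others skip. In mm10 it lies at chr3:136932011-136932040 on the plus strand in Ppp3ca and at chr14:20503247-20503276 on the minus strand in Ppp3cb. Both are coding exons of GENCODE M21, and their sequences were read from its transcripts. The cassettes of these paralogs share 26 of 30 bases, which is 86.7%. Capitals mark the bases that differ, which are T2C, T5A, T26A and G27A, counted from the 5′ end with the Ppp3ca base first.
Ppp3ca cassette exon: cTacTgttgaggctattgaggctgaTGaag
Ppp3cb cassette exon: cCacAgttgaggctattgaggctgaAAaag

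Rcan1 starts from alternative first exons that give proteins with different beginnings. The upstream form, Rcan1-202, has 251 codons, of which its first exon supplies 82. The internal form, Rcan1-201, has 198 codons, of which its own first exon supplies 29, and the remaining 169 codons are the same in number in both. Transcription from the internal start is a widely used readout of calcineurin and NFAT activity. The coding parts of these first exons lie at chr16:92465833-92466078 and chr16:92399896-92399982 on the minus strand of mm10. The start codon is in capitals.
Rcan1-202, upstream first exon, coding part: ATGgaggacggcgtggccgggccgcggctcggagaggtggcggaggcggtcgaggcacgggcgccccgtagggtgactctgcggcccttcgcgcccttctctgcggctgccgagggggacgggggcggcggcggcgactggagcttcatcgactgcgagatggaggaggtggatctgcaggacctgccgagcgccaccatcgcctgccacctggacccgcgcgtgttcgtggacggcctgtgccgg
Rcan1-201, internal first exon, coding part: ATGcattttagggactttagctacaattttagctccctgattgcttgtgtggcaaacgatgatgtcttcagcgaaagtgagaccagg

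The 250 bases before each of these starts differ in their NFAT core motifs. They were taken from RefSeq for GRCm38.p6, at chr16:92466170-92466419 for the upstream start and chr16:92400079-92400328 for the internal start, both on the minus strand. Capitals mark GGAAA on either strand, written TTTCC where the match is on the opposite one.
Rcan1, before the upstream start: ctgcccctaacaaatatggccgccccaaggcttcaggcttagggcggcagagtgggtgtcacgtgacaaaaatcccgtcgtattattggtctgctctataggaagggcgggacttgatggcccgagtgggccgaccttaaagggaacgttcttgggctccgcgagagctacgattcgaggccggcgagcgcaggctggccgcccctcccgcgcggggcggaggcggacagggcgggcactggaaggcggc
Rcan1, before the internal start: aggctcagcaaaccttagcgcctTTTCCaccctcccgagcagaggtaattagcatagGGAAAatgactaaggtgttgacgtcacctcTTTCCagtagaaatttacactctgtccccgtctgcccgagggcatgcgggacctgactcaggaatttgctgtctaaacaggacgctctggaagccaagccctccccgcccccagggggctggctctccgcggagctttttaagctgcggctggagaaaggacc

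The window before the internal start held 3 GGAAA matches, which begin 227, 193 and 163 bases before the start, and the window before the upstream start held 0. Of the 3 matches, 2 were part of a GGAAAA. The internal window also held 1 match to TGACTCA, the core of AP-1 sites, where AP-1 proteins often bind beside NFAT. Among 32851 windows of the same length in the same table, 55.6% held at least 1 GGAAA and 6.39% held 3 or more, on either strand. At least 1 GGAAAA was held by 20.4%, and at least 1 TGACTCA by 4.46%. Among the other members, 3 matches stood before the start of Nfatc4, before that of Ppp3cb and before 1 start of Nfatc2. The Nfatc4 and Ppp3cb windows also held 2 GGAAAA each, as many as the internal Rcan1 window. The other Nfatc2 start and 1 start of Nfatc3 had 1 match each, and the other Nfatc3 start and that of Ppp3r1 had 0. In all, 6 of the 8 members had an entry, with 9 windows. A match is a description of letters, and no binding was measured.

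All 8 genes were detected, meaning a level of at least 1 TPM (transcripts per fixed total, corrected for length) in both libraries, as were 10828 genes in all. In the alignment-based table, the subunits of calcineurin were high and nearly equal, the inhibitor was lower, and the NFAT genes were lower still. In order of mean level (mean ± SD, n = 2), Ppp3cb stood at 66.8 ± 6.65 TPM, Ppp3ca at 66.1 ± 9.57 TPM and Ppp3r1 at 61.9 ± 6.48 TPM. They were followed by Rcan1 at 19.4 ± 7.09 TPM and Nfatc1 at 11.8 ± 0.255 TPM. Nfatc3 had 8.85 ± 0.120 TPM, Nfatc2 3.23 ± 1.21 TPM and Nfatc4 1.22 ± 0.127 TPM. The ranges of the 3 calcineurin subunits overlapped in this table. In the reads-based table, Ppp3ca, with 135 and 97.6 TPM, lay wholly above Ppp3r1, with 93.5 and 76.1 TPM, and Ppp3cb, with 101 and 83.2 TPM, overlapped both. Below them, no neighbouring pair in this order overlapped in the alignment-based table. The median detected gene had 7.20 TPM, which only Nfatc2 and Nfatc4 of the 8 fell below.

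**Figure D1:**
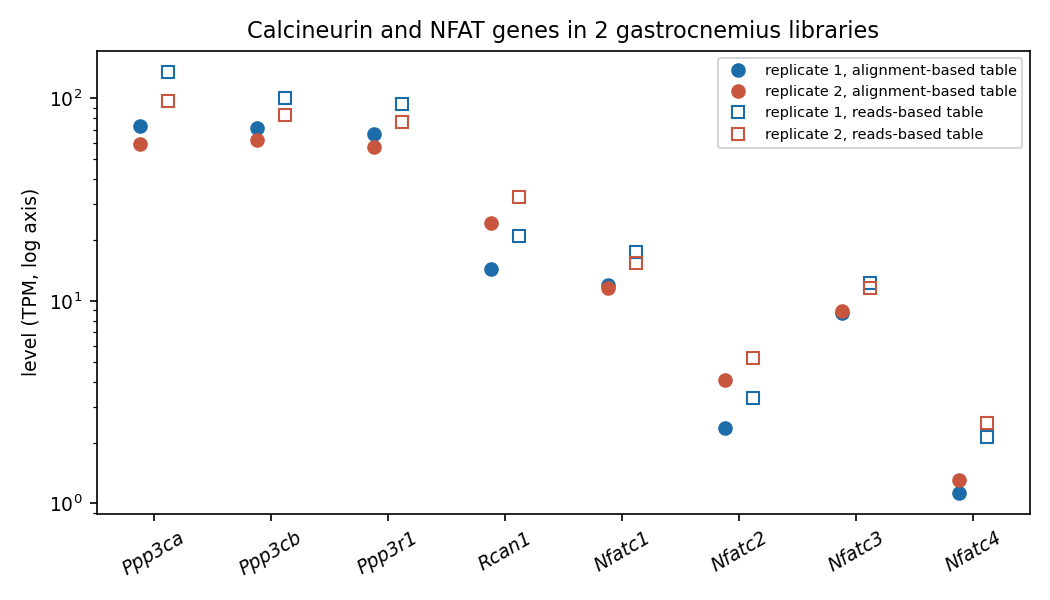
Level of each of the 8 genes in TPM (log axis) in replicate 1 (blue) and replicate 2 (red), from the alignment-based gene table (filled circles) and summed over transcripts of the reads-based table (open squares). Points are single libraries; the calcineurin subunits lie at 57.3 to 72.9 TPM in the alignment-based table, and Nfatc4 at 1.13 and 1.31 TPM.

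The catalytic subunits were Ppp3ca and Ppp3cb in nearly equal parts. Ppp3ca (ENSMUSG00000028161.17, chr3:136670124-136937727, plus strand) had 72.9 TPM in replicate 1 and 59.4 TPM in replicate 2. Ppp3cb (ENSMUSG00000021816.11, chr14:20499364-20546573, minus strand) had 71.5 and 62.1 TPM. Ppp3cc, the third catalytic subunit, known mainly from testis, had 4.97 and 6.26 TPM. Ppp3ca thus supplied 48.8% and 46.5% of catalytic-subunit TPM, Ppp3cb 47.9% and 48.6%, and Ppp3cc 3.33% and 4.90%. Which of the leading pair came first changed with the library and with the table. In the reads-based table, Ppp3ca led in both libraries with 55.5% and 51.4%, against 41.3% and 43.8% for Ppp3cb. In both tables Ppp3cc stayed under 5% of the catalytic subunits.

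The regulatory subunit was Ppp3r1 alone. Ppp3r1 (ENSMUSG00000033953.10, chr11:17159263-17200375, plus strand), which encodes the B subunit of most tissues, had 66.4 TPM in replicate 1 and 57.3 TPM in replicate 2. Ppp3r2, the testis form, had 0 counts in both libraries. Catalytic transcripts outnumbered Ppp3r1 transcripts 2.25-fold in replicate 1 and 2.23-fold in replicate 2, a ratio that hardly moved between the libraries. The reads-based table gave 2.60 and 2.49. Ppp3r1 shares 462 exon bases on the same strand with Wdr92, which had 124 and 171 counts. The deposited posterior SD of the Ppp3r1 count was 3.24 and 1.95, of 5530 and 5036 counts. The other members shared no exon base with a same-strand gene, and Nfatc3 shared 219 bases with Esrp2 on the opposite strand, which had 0 and 5 counts.

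All 3 calcineurin subunit genes were slightly lower in replicate 2 after scaling by TMM, which sets most genes equal. Counts were 7411 and 6539 for Ppp3ca, 6324 and 5948 for Ppp3cb, and 5530 and 5036 for Ppp3r1. The ratio of replicate 2 to replicate 1 was 0.841 for Ppp3ca (95% counting interval 0.814 to 0.870), 0.897 for Ppp3cb (0.865 to 0.929) and 0.868 for Ppp3r1 (0.836 to 0.902). These intervals lay below 1, but 33.5%, 52.3% and 41.8% of the 9997 genes that averaged 100 counts or more lay further apart. The direction depends on the scaling: relative to the spike-ins, log2 ratios were 0.14 for Ppp3ca, 0.23 for Ppp3cb and 0.19 for Ppp3r1, against a median of 0.38 over all genes. The subunits lay below the median gene. The choice of scaling shifts the log2 ratio of every gene nearly alike, so it could not change this position.

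Rcan1 and Nfatc2 were the members that differed most between the libraries, and both were higher in replicate 2. Rcan1 (ENSMUSG00000022951.16, chr16:92391953-92470867, minus strand), which binds calcineurin and inhibits it, had 943 counts and 14.4 TPM in replicate 1. It had 1678 counts and 24.4 TPM in replicate 2. Replicate 2 was 1.70-fold higher (1.57 to 1.84), and 5.70% of the 9997 genes lay further apart. Nfatc2 (ENSMUSG00000027544.16, chr2:168476410-168601657, minus strand), a NFAT factor best known from T cells, had 327 counts and 2.37 TPM in replicate 1, and 590 counts and 4.08 TPM in replicate 2. It was 1.72-fold higher in replicate 2 (1.5004 to 1.98), with 5.43% of genes further apart. So 2 of 8 members lay over 1.5-fold apart, and 0 were that much higher in replicate 1. Over all 9997 genes, 8.98% were over 1.5-fold apart, 5.64% higher in replicate 2 and 3.34% higher in replicate 1. With 8 genes, 2 is a small count, and no test of it was made. In the reads-based table the ratios were 1.67 for both Rcan1 and Nfatc2.

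**Figure D2:**
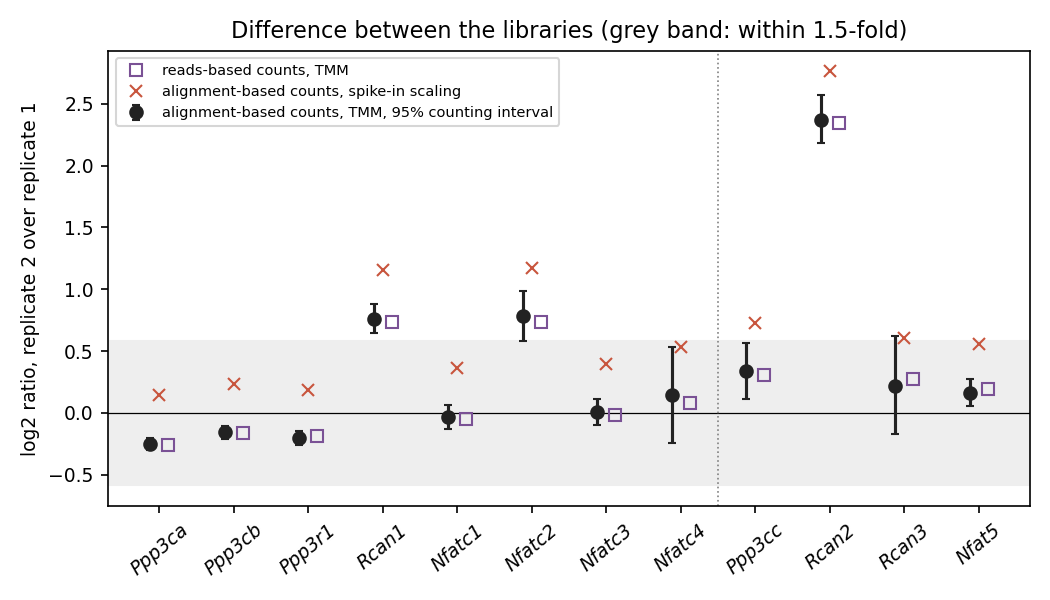
Log2 ratio of replicate 2 over replicate 1 for the 8 genes (left of the dotted line) and 4 relatives (right), with TMM scaling and 95% counting intervals (black), from the reads-based table (squares) and relative to the spike-ins (crosses). The grey band is within 1.5-fold; Rcan1 at 0.76 and Nfatc2 at 0.78 lie above it, as does the relative Rcan2 at 2.37.

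The libraries also differed in markers of other cells and of fibre type, and those values stand beside the Rcan1 and Nfatc2 differences. For fibre type, the 9 slow-fibre genes described further below were all over 2-fold higher in replicate 2. Over all 9997 genes, 2.09% were. Of 11 T cell and thymocyte markers, none reached 1 TPM in both libraries. Their summed level was 0.430 TPM in replicate 1, where 5 of the 11 had 0 counts, and 11.0 TPM in replicate 2, with Lck, the leading one, at 0 and 2.44 TPM. B cell markers summed to 42.6 and 51.2 TPM, nearly all of it Ighm, and macrophage markers to 24.3 and 25.8 TPM with Lyz2 leading. Endothelial markers, led by Egfl7, summed to 73.0 and 76.3 TPM. By TMM-scaled counts, 6 of these 7 markers were higher in replicate 2, and only Egfl7 was lower. Fat cell markers, led by Fabp4, were lower in replicate 2, with 366 and 113 TPM, as were nerve and Schwann cell markers, with 119 and 36.4 TPM. Smooth muscle and pericyte markers (Rgs5 leading) stood at 101 and 105 TPM, fibroblast markers (Col1a1 leading) at 650 and 672 TPM, and satellite cell markers (Cdh15 leading) at 13.6 and 12.7 TPM. Of the 5 satellite cell markers, 4 were higher in replicate 2 by TMM-scaled counts, with a list median log2 ratio of 0.34, and only Cdh15 was lower. The muscle fibre markers, led by Acta1, were all 8 detected and summed to 86115 and 66237 TPM, so the defining genes of the labelled tissue were present. This sum hides opposite directions. By TMM-scaled counts, 6 of the 8 were lower in replicate 2 and 2 were higher, 1 of them over 2-fold. The part of these cell types in the differences of the members was not tested. In bulk RNA, more cells of a type and more RNA per cell cannot be told apart.

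The NFAT genes were led by Nfatc1 and Nfatc3. Nfatc1 (ENSMUSG00000033016.16, on chromosome 18), known in muscle for its movement into the nuclei of slow fibres, had 1635 counts and 11.99 TPM in replicate 1 and 1677 counts and 11.6 TPM in replicate 2. Nfatc3 (ENSMUSG00000031902.10, chr8:106058840-106130537, plus strand), known from developing muscle, had 1399 counts and 8.76 TPM, and 1473 counts and 8.93 TPM. Neither gene differed beyond counting error. The ratio of replicate 2 to replicate 1 was 0.978 for Nfatc1 (0.913 to 1.05) and 1.00 for Nfatc3 (0.932 to 1.08), with 89.5% and 98.2% of genes further apart. Nfatc4 (ENSMUSG00000023411.12, chr14:55823144-55833943, plus strand), known from heart and nervous system, was the lowest, with 107 counts and 1.13 TPM, and 124 counts and 1.31 TPM. Its ratio of 1.10 (0.846 to 1.44) carries the widest interval of the 8. The deposited credibility interval of its TPM, whose level is not stated, ran from 1.27 to 2.54 in replicate 1 and from 1.45 to 2.84 in replicate 2, above the deposited TPM in both libraries.

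Nfatc1 and Nfatc3 together held most of the NFAT transcripts. Of the summed TPM of the 4 calcium-regulated NFAT genes, Nfatc1 held 49.4% in replicate 1 and 44.8% in replicate 2, and Nfatc3 36.1% and 34.4%. Nfatc2 held 9.77% and 15.7%, and Nfatc4 held 4.66% and 5.05%. The order was the same in both libraries and in the reads-based table, where Nfatc1 had 49.4% and 44.4% and Nfatc3 34.98% and 33.4%. The sum itself was 24.3 TPM in replicate 1 and 26.0 TPM in replicate 2, so the NFAT genes taken as a sum were close in both.

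The form of Rcan1 present could not be settled, because the deposited tables contradict each other. In the alignment-based table, Rcan1-201, the internal form, made up 54.3% of Rcan1 TPM in replicate 1 and 60.3% in replicate 2, and Rcan1-202, the upstream form, 44.4% and 37.9%. In the reads-based table, Rcan1-202 made up almost all, with 99.99% and 94.0%, and Rcan1-201 was near 0 in replicate 1 and 0.920% in replicate 2. In estimated counts, Rcan1-201 had 498 and 991 in the alignment-based table, and near 0 and 15.3 in the reads-based one. A further form, Rcan1-203, had 5.11% in replicate 2 of the reads-based table and at most 1.35% elsewhere. The gene total differed little between tables, with 1025 and 1778 counts in the reads-based one. Rcan1 as a gene was therefore higher in replicate 2 in both tables, while the start that its transcripts used was not determined.

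The cassette of Ppp3ca was given alike by both tables, and that of Ppp3cb was not. Among the coding Ppp3ca transcripts, the form with the cassette, Ppp3ca-201, made up 50.2% and 47.4% of TPM in the alignment-based table, and 48.2% and 46.9% in the reads-based one. The form without it, Ppp3ca-202, made up the rest. These forms also differ past the end of the coding part and in length, 2194 against 4758 bases, so reads over the cassette are not the only ones that set the shares. By estimated counts, which favour the longer form, Ppp3ca-201 held 31.2% and 28.8%. The noncoding Ppp3ca-204 held 18.9% and 13.4% of gene TPM in the reads-based table and 0 in the other. For Ppp3cb, the forms with the cassette, Ppp3cb-202 and Ppp3cb-205, made up 94.5% and 90.2% of the 3 coding forms that span it in the alignment-based table, but 65.0% and 58.7% in the reads-based one. The leading form was Ppp3cb-205 in both tables. It held 67.8% and 60.8% of gene TPM in the alignment-based table and 45.7% and 36.6% in the reads-based one. Ppp3cb-201, which skips the cassette, held 4.73% and 8.51% against 32.7% and 38.2%, Ppp3cb-202 13.2% and 17.2% against 14.9% and 17.6%, and the retained-intron transcript Ppp3cb-203 10.1% and 7.44% against 1.28% and 0. In both tables the share of the cassette was lower in replicate 2 for both genes, by less for Ppp3ca than for Ppp3cb.

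**Figure D3:**
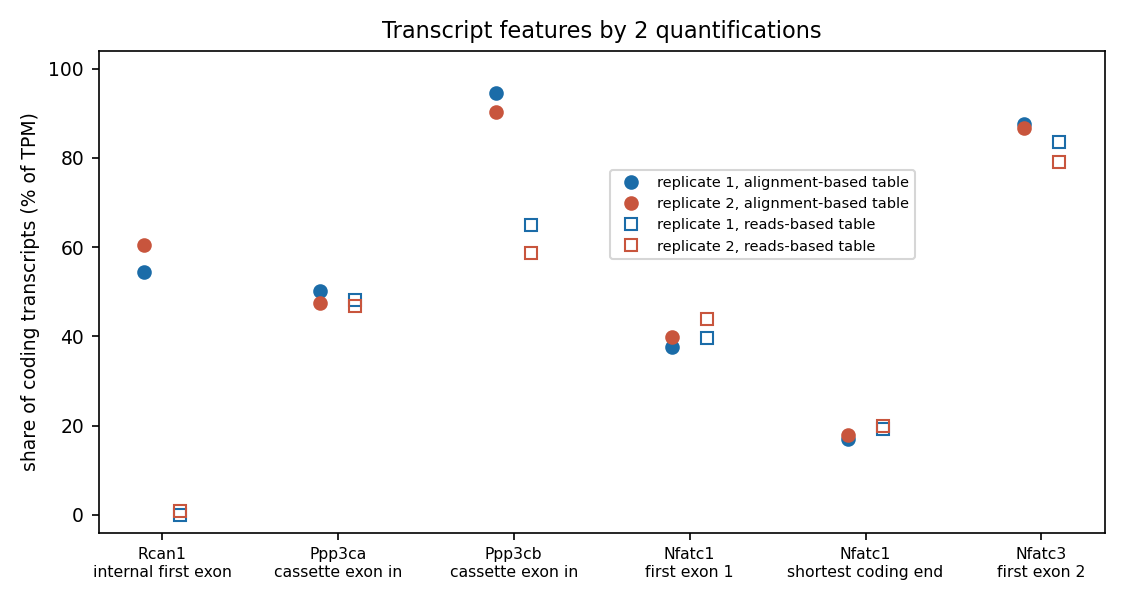
Share of coding-transcript TPM, in percent, that carries each named feature, in replicate 1 (blue) and replicate 2 (red), from the alignment-based (filled circles) and the reads-based table (open squares). For Ppp3cb the share is of 3 of its 4 coding transcripts, those that span the cassette. The Rcan1 internal first exon lies at 54.3% and 60.6% in one table and below 1% in the other, while the Ppp3ca cassette lies between 46.9% and 50.2% in both.

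For Nfatc1, the tables came close on the first exon and on the shortest coding end, less so on the other ends, and not on single transcripts. Nfatc1 has an upstream first exon (first exon 1) and a downstream one (first exon 2), and 3 coding ends, of which the first gives the shortest proteins. The upstream first exon with the shortest end gives the short form that is known from activated lymphocytes. The upstream first exon was in 37.6% and 39.8% of coding TPM in the alignment-based table, and in 39.6% and 43.8% in the reads-based one. The shortest end was in 17.1% and 17.8%, and in 19.2% and 19.9%. The second end was in 44.1% in both libraries of the alignment-based table, against 34.3% and 39.0% in the reads-based one, and the third in 38.8% and 38.1%, against 46.5% and 41.1%. The pairing of the start with the end was not settled. The shortest end belonged to Nfatc1-201, with the downstream start and 703 codons, in the alignment-based table, at 17.1% and 17.8%. In the reads-based table it belonged to Nfatc1-206, with the upstream start and 717 codons, at 19.2% and 19.8%, and each was at or near 0 in the other table. Of the longer forms, Nfatc1-202 held 37.6% and 39.8% against 4.10% and 21.6%, Nfatc1-203 38.8% and 38.1% against 30.2% and 38.6%, Nfatc1-204 0 against 16.3% and 2.496%, and Nfatc1-205 6.50% and 4.30% against 30.2% and 17.4%.

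Nfatc3 had 1 leading form in both tables, Nfatc3-201, with 1076 codons. It held 77.8% and 74.3% of gene TPM in the alignment-based table and 76.3% and 70.4% in the reads-based one. Nfatc3-202, from the other first exon, held 11.1% and 11.5%, against 15.0% and 18.6%. The retained-intron transcripts Nfatc3-203 and Nfatc3-207 held 8.00% and 10.5%, and 0 in the alignment-based table. In the reads-based table they held under 1%, and 5.23% and 6.00%. Ppp3r1 was simpler still, since Ppp3r1-201, its coding form of 170 codons, held 98.3% and 98.4% of TPM in the alignment-based table and 98.5% in both libraries of the reads-based one.

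Nfatc2 and Nfatc4 were too low for their forms to be told apart with any firmness. Nfatc2-204, a form of 923 codons, led Nfatc2 in both tables, with 25.9% and 40.3% of gene TPM in the alignment-based table and 49.2% and 54.5% in the reads-based one. Its estimated counts, not scaled for depth, were 127 and 357 in the alignment-based table and 261 and 509 in the reads-based one. The estimates were thus higher in replicate 2 in both. The deposited TPM bounds overlapped, at 0.053 to 0.882 in replicate 1 and 0.811 to 1.84 in replicate 2. Transcripts not annotated as coding, among them Nfatc2-203, Nfatc2-206, Nfatc2-207 and Nfatc2-208, held 45.2% and 22.5% of Nfatc2 TPM, against 40.2% and 34.4%. The other coding forms Nfatc2-201, Nfatc2-202 and Nfatc2-209 ranged from 0 to 16.3%. For Nfatc4 the leading form was Nfatc4-202 in the alignment-based table, with 74.3% and 46.2%, and Nfatc4-201 in the reads-based one, with 40.01% and 38.6%. Retained-intron transcripts (Nfatc4-203, Nfatc4-205, Nfatc4-206, Nfatc4-207, Nfatc4-208 and Nfatc4-210) and the short coding Nfatc4-211 each lay between 0 and 35.3% of Nfatc4 TPM and never passed 5% in every library and table.

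Among the relatives outside the 8, Rcan2 differed far more than any member. Rcan2, a second calcineurin inhibitor of the same family, had 254 counts and 4.46 TPM in replicate 1 and 1380 counts and 17.8 TPM in replicate 2, which is 5.17-fold higher (4.53 to 5.95). Over 2-fold higher in replicate 2 were 2.09% of all genes tested. Rcan1 held 72.1% of the TPM of the 3 Rcan genes in replicate 1 and 56.2% in replicate 2, and Rcan2 22.4% and 40.9%. Rcan1 led in both libraries, and in the reads-based table as well, with 71.8% and 51.5%. Rcan3 had 1.11 and 1.24 TPM, and Nfat5, the NFAT relative that responds to salt stress and not to calcineurin, 5.97 and 6.77 TPM. Of the 5 relatives, 4 had a mean count of at least 10, all 4 were higher in replicate 2, with a median log2 ratio of 0.28, and Rcan2 alone passed 1.5-fold. The median over 15007 genes with such counts was -0.0020.

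Of 14 genes listed as calcineurin anchors, inhibitors or binding proteins, 10 averaged 100 counts or more. Of those 10, 3 lay over 1.5-fold apart: Myoz2, Homer2 and Pvalb. Over all 9997 genes with such counts, 8.98% lay that far apart. The list is mixed and also holds a calcium buffer, Pvalb. Of the 14 genes, 13 had a mean count of at least 10. Of these, 5 were higher and 8 lower in replicate 2, with a median log2 ratio of -0.01. The highest were Pvalb, the calcium buffer of fast fibres, at 9941 and 6435 TPM, Myoz1, a Z-disc protein of fast fibres that binds calcineurin, at 1542 and 1214 TPM, Myoz2, its slow-fibre and heart relative, at 1.31 and 202 TPM, and Ppia, a cyclophilin, at 89.9 and 80.8 TPM. Myoz2 had 42 counts in replicate 1 and 6956 in replicate 2, which is 156-fold higher (117 to 219). Homer2, a scaffold protein, had 1236 and 3414 counts, 2.63-fold higher in replicate 2 (2.47 to 2.81). Pvalb was the 1 gene of the list over 1.5-fold lower in replicate 2, at a ratio of 0.652 (0.648 to 0.656). Myoz2 and Pvalb are themselves markers of fibre type. Akap5, an anchoring protein, had only 11 and 47 counts, a ratio of 3.94 (2.08 to 8.71).

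The calcium supply and the kinases that oppose calcineurin lay mostly within 1.5-fold. Of 12 genes of calmodulin and calcium entry, 4 were higher and 8 lower, with a median log2 ratio of -0.18. Among the leading members were the calcium channels Ryr1 at 812 and 715 TPM and Cacna1s at 394 and 327 TPM, and the calmodulin gene Calm3 at 178 and 117 TPM. Of the 9 that averaged 100 counts or more, 2 passed 1.5-fold, against 8.98% of all genes with such counts. They were Calm3, at a ratio of 0.667 (0.648 to 0.686), and Stim2, a calcium sensor of the endoplasmic reticulum, at 0.630 (0.586 to 0.676). Calm3 was 1.5002-fold lower in replicate 2 (1.46 to 1.54), so its interval spans the threshold. Of 13 NFAT kinases and transport genes, 3 were higher and 10 lower, none over 1.5-fold, with a median of -0.08. The leading ones were Csnk1a1 at 76.4 and 73.4 TPM, Dyrk1b at 41.1 and 35.5 TPM, Mapk14 at 37.2 and 32.5 TPM and Dyrk1a at 28.6 and 32.5 TPM.

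The partner factors were mixed in direction, while the slow-fibre genes were all higher in replicate 2. Of 11 transcription factors and co-regulators that act with NFAT or calcineurin, 10 had a mean count of at least 10, with 6 higher and 4 lower and a median log2 ratio of 0.10. Mef2c led at 152 and 140 TPM, followed by Mef2d at 65.3 and 68.1 TPM, Mef2a at 32.5 and 29.0 TPM and Hdac5 at 26.4 and 30.8 TPM. Ppargc1a, a co-activator of mitochondrial genes, was 2.74-fold higher (2.54 to 2.96) with 900 and 2591 counts, and Fos, an AP-1 subunit, 2.54-fold higher (2.04 to 3.21) with 108 and 289 counts. The 9 slow-fibre and oxidative genes that are described as calcineurin responsive were all over 2-fold higher in replicate 2, with a median log2 ratio of 8.14. Mb, myoglobin, had 41.5 and 1324 TPM, Myh2, the 2A myosin, 147 and 728 TPM, Myl2 0.360 and 666 TPM and Myh7, slow myosin, 0.240 and 472 TPM. The other members of the list were Myl3 at 0.080 and 465 TPM, Tnnt1 at 1.19 and 321 TPM, Tnnc1 at 0.410 and 303 TPM, Tnni1 at 0.650 and 170 TPM, and the calcium pump Atp2a2 at 12.2 and 215 TPM. These are alignment-based values. In the reads-based table, Atp2a2 had 74.5 and 322 TPM, with a ratio of 4.63 against 16.7, and Myh7 had 2.96 and 406 TPM. This list was known from earlier results of these data to differ, so its direction supports nothing further. The 8 calcineurin and NFAT genes had a median log2 ratio of -0.01, with 4 higher and 4 lower. This median does not show Rcan1 and Nfatc2, which were over 1.5-fold higher in replicate 2. Relative to the spike-ins, all 8 were higher in replicate 2, as the median gene was.

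**Figure D4:**
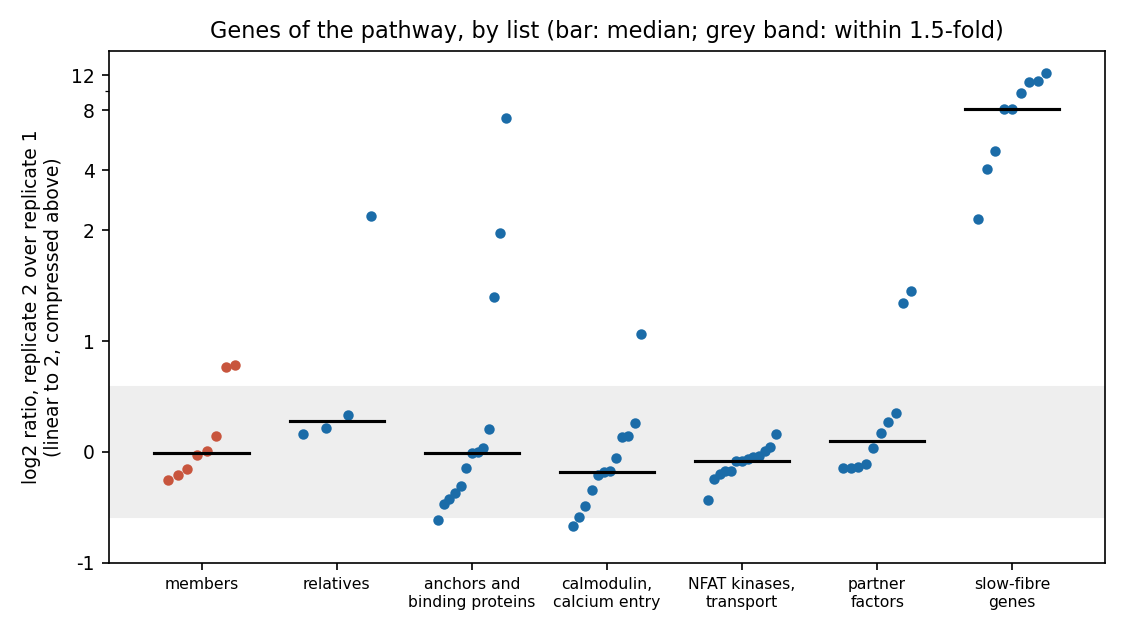
Log2 ratio of replicate 2 over replicate 1 with TMM scaling (linear to 2, compressed above) for each gene with a mean count of at least 10: the 8 calcineurin and NFAT genes (red) and 6 lists of pathway genes (blue), with the list medians as bars and the range within 1.5-fold in grey. The median is -0.01 for the 8 genes, of which Rcan1 and Nfatc2 lie above the grey range. It is 8.14 for the slow-fibre genes, which were known beforehand to differ.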

How the data were processed

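Total RNA from gastrocnemius was measured in 2 libraries of 1 group, grouped and numbered by the labels. The authors deposited expected counts per gene and transcript, derived from alignments to the transcriptome, and estimated counts per transcript, derived directly from the reads, none of them normalised. TPM values and FPKM values are as deposited, scaled by the authors for length and total. Per the file headers, posterior SDs, posterior mean TPM and credibility bounds, used here as scores, stand beside them, with no level stated for the bounds. The deposited percent of each transcript in its gene was recomputed from TPM. The annotation was GENCODE M21 on mm10, per the deposited descriptions, and the program is not given in the sources used here. TPM of the 2 kinds of table were scaled separately, so levels are compared only within a table. The effect of the castaneus alleles on alignment to mm10 was not tested.

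Expected counts were rounded to whole numbers to compute TMM factors with edgeR 4.0.16 and size factors with DESeq2 1.42.0 in R 4.3.3; no test was run with either. Log2 ratios are replicate 2 over replicate 1, with a prior count of 0.5, and printed ratios are of scaled counts with exact (Clopper-Pearson) intervals at 95%. Intervals cover counting error only, and they treat the reads as independent. The reads carry no molecular identifiers and are not independent, so the intervals can be too narrow. Spike-ins took 0.646% and 0.479% of counts. The tRNA rows held 3 and 0 counts and were left out. Shares past a fold are over genes that averaged 100 counts or more, and list medians over genes that averaged 10 or more. The TMM-scaled log2 ratios were tested on simulated counts with known fold changes and counting noise only. Transcript shares, intervals and motif counts were not tested in this way. Tables and plots were made in Python 3.11.15 (numpy 2.4.6, scipy 1.17.1, pandas 2.3.3, matplotlib 3.10.9).

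The members and lists were chosen with earlier results of these data known. The text names all 8 members, up to 4 of the highest genes of each list by mean TPM, list genes over 2-fold apart that averaged 100 counts or more, the leading marker of each cell type, and transcripts with at least 5% of their gene in a library or table. Stim2, Ppp3r2 and Akap5 are exceptions, chosen once their values had been seen. The values of 2 list genes are not reported here. Wdr92 and Esrp2 are named for sharing exon bases with a member. Alternatives covered detection thresholds, units, scaling, filters, the prior count, leaving out each library, and the reads-based table.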

Additional observations from a re-analysis of the deposited data

How the results depend on the processing

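No paired analysis was possible because the series has 1 group. All 8 members were detected in the reads-based table, and 6 at a minimum of 5 TPM. A lower minimum and leaving out a library cannot lower that count. Rcan1 and Nfatc2 were the 2 members over 1.5-fold apart under every scaling, prior count and table tried. None of the alternatives turned a called member, and 32 of 40 alternative log2 ratios of members stayed within the counting interval; the other 8 were those relative to the spike-ins. With spike-in scaling, 2372 genes lay over 1.5-fold apart, 94.7% of them higher in replicate 2 against 62.8% with TMM. The number of genes that far apart was 2666 over genes that averaged 10 counts or more, and 9471 with no filter on low counts, both with TMM. With spike-in scaling the list medians moved to 0.67 for the relatives, 0.38 for the anchors, 0.21 for calmodulin and calcium entry, 0.31 for the kinases, 0.49 for the partner factors and 8.53 for the slow-fibre genes. With DESeq2 size factors the anchors' median was 0.0069. Ppp3ca held 53.5% of catalytic TPM on average in the reads-based table against 47.6%, and Nfatc3 33.7% of NFAT TPM by posterior means against 35.3%.

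The main transcript's share of its gene is given as a mean of both libraries. From the alignment-based to the reads-based table it went from 50.4% to 43.4% for Ppp3ca-202, from 64.3% to 41.2% for Ppp3cb-205, from 98.4% to 98.5% for Ppp3r1-201, from 57.3% to 0.460% for Rcan1-201, from 38.7% to 12.8% for Nfatc1-202, from 33.1% to 51.9% for Nfatc2-204, from 76.1% to 73.3% for Nfatc3-201 and from 60.3% to 13.7% for Nfatc4-202. By posterior means it was 98.1% for Ppp3r1-201, 31.1% for Nfatc1-202 and 29.0% for Nfatc4-202. Over protein-coding transcripts only it was 72.7% for Ppp3cb-205, 100% for Ppp3r1-201, 49.7% for Nfatc2-204 and 87.1% for Nfatc3-201. The cause of these shifts was not tested. With 2 libraries, leaving out 1 returns the value of the other: Nfatc2-204 had 25.9% or 40.3% and Nfatc4-202 46.2% or 74.3%, the widest of these ranges.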
